A study of Aspergillus nidulans with 4 samples.

Results

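Catalases and superoxide dismutases are the enzymes with which a fungal cell takes apart reactive oxygen, and the transcripts of 7 such genes of the mould Aspergillus nidulans are described here. They were chosen by gene identifier and make up 7 of the 10930 genes measured. The catalases are catA (AN8637), catB (AN9339) and catC (AN5918) with the catalase-peroxidase cpeA (AN7388), and the superoxide dismutases are sodA (AN0241), sodB (AN5577) and AN0785. The study sequenced RNA of strain AN1404, which lacks the gene of the mitogen-activated protein kinase MpkA, and of its parental strain AN1405, to look for functions of the kinase in unstressed cultures. There were 2 libraries per strain, and each mutant value rests on 1 deletion strain, with no complemented strain analysed here. Both strains were grown in the same way, in shaken yeast extract and glucose medium (2% glucose) of pH 3.3 at 28 °C. A culture of 12 h seeded the main culture, whose mycelium was taken after about 20 h, near the end of exponential growth. The labels name no other allele for either strain. The series text mentions both biological and technical replicates but not which libraries are which, and the p-values therefore reflect a spread among libraries that may be only technical.

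Superoxide dismutases turn superoxide, a by-product of respiration and of oxidases, into oxygen and hydrogen peroxide. Catalases then split hydrogen peroxide into water and oxygen, and catalase-peroxidases can also reduce it with other electron donors. In A. nidulans the catalases are known for being divided among cell types and compartments, with CatA in conidia (the asexual spores), CatB in growing hyphae and under oxidative stress, CatC in peroxisomes, and CpeA in sexual tissue and starving cultures. Among superoxide dismutases, the copper- and zinc-dependent type works mainly in the cytosol and the manganese type in mitochondria.

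The libraries held between 31609185 and 34871842 reads on genes. The deleted gene mpkA (AN5666) had 6 and 3 reads in the deletion and 6993 and 6437 in the parental libraries. Normalized reads are reads per gene divided by the size factor of the library, as in the authors' tables, and the libraries of a strain are called a and b in that order throughout. A gene was called where the q-value in the authors' deposited table was under 0.05. By that rule 72.2% of the 10505 genes tested were called (36.3% higher and 35.9% lower in the deletion strain), and the libraries of the strains did not overlap for 87.7%, so a call or a gap between strains is common in these data. The even split depends on the scaling: the count test of edgeR, run on reads per library recovered from those means, called 3966 genes higher and 4109 lower with TMM scaling, and 3066 higher and 4997 lower with library totals.

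Of the 7 genes, 5 were called higher in the deletion strain, 1 lower and 1 was not called. Over all genes tested, 36.3% were called higher and 35.9% lower. Changes of at least 2-fold were made by 3 genes upward (AN0785, catB and catC), against 9.12% of all genes tested, and by 1 gene downward (cpeA), against 18.1%. The median log2 change over the 7 genes was 0.46, and over all genes tested it was -0.02. The libraries of the strains did not overlap for any of the 7 genes, 5 of them lying higher and 2 lower in the deletion strain. The same held for 87.7% of all genes tested, so such a gap is common.

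**Figure D1:**
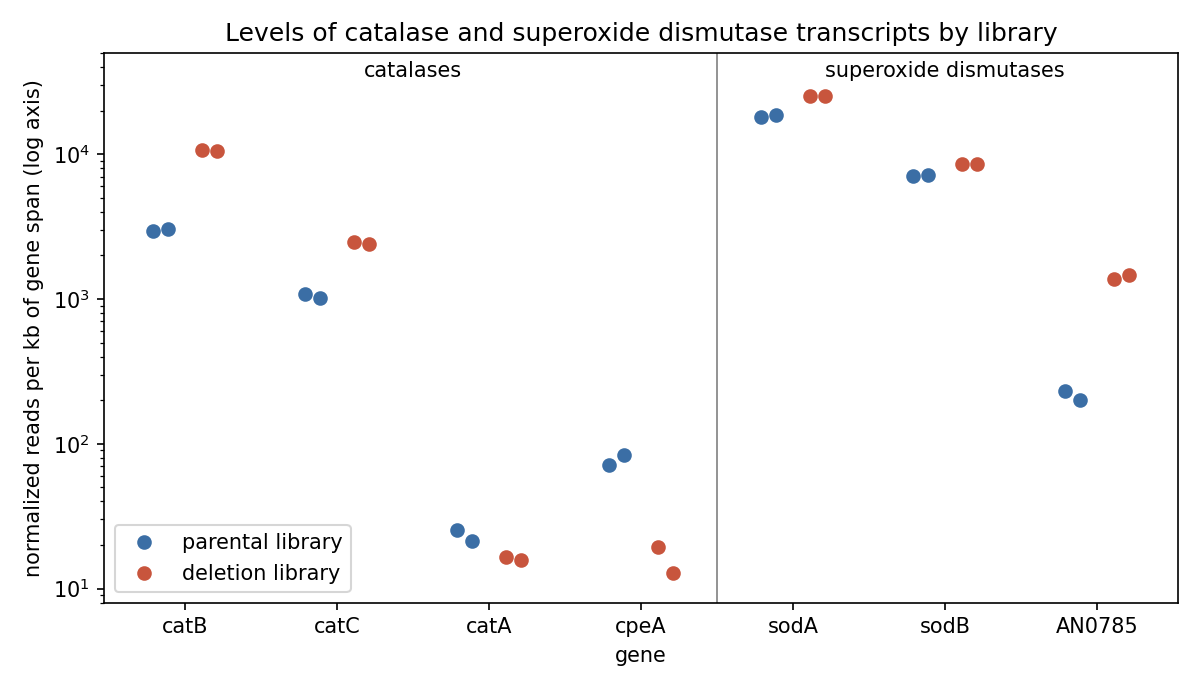
Normalized reads per kb of gene span on a log axis, with 1 point per library, parental libraries to the left of deletion libraries for each gene. For catB, catC, sodA, sodB and AN0785 both deletion points lie above both parental points, and for catA and cpeA both lie below.

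The hyphal catalase gene catB carried most of the catalase transcript and rose strongly. It spans positions 329542 to 332021 on the minus strand in the deposited table, which names neither chromosome nor genome build. It had 23804 and 23482 reads in the deletion and 8403 and 8168 in the parental libraries. After scaling these were 26470 and 26261 normalized reads against 7315 and 7536. The libraries of one strain lay within 1.03-fold of each other, far less than the gap between the strains. In the authors' deposited table the means were 26366 and 7425, which is a 3.55-fold rise (q listed as 0). The edgeR quasi-likelihood test on the reads of each library gave a log2 change of 1.81 (SE 0.03, adjusted p = 7.97e-19). Of the genes tested, 4.69% rose more than catB. In RNA from whole mycelium, more cells that express a gene and more RNA per cell cannot be told apart.

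The gene catC, annotated in the deposited table as a putative catalase and known in this species as the peroxisomal enzyme, rose as well but by less. It spans positions 1815928 to 1817971 on the minus strand. It had 4548 and 4362 reads in the deletion libraries against 2550 and 2266 in the parental libraries, or 5057 and 4878 normalized reads against 2220 and 2091. Both deletion libraries stood above both parental libraries, and the libraries of a strain differed by 1.04-fold and 1.06-fold. The authors' deposited table gave means of 4968 and 2155, a 2.31-fold rise (q = 1.22e-138), and edgeR a log2 change of 1.19 (SE 0.04, adjusted p = 1.20e-14). The catC span overlaps the gene AN5919, on the opposite strand, over 253 bp. Reads in that stretch cannot be given to either gene by strand, because the library kit does not mark it. AN5919 itself was not called, with 831 against 888 normalized reads by the authors' deposited table (q = 0.284). Per kb of span, catB stood 4.31 and 4.44 times above catC in the deletion libraries and 2.72 and 2.97 times above it in the parental libraries, so the distance between the pair was wider in both deletion libraries.

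The catalase-peroxidase gene cpeA went the other way. It lies at positions 112163 to 114616 on the minus strand and had 43 and 28 reads in the deletion libraries against 200 and 221 in the parental libraries, or 47.8 and 31.3 normalized reads against 174 and 204. The deletion libraries differed from each other by 1.53-fold at these low reads, and both stayed below the parental ones. By the authors' deposited table it was 4.78-fold lower, with means of 39.6 and 189 (q = 4.16e-20). The edgeR log2 change was -2.27 (adjusted p = 4.08e-09), and counting error alone corresponds to an SE of 0.19. Of all genes tested, 9.75% fell more.

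The conidial catalase gene catA, at positions 3296270 to 3298750 on the plus strand, was near the bottom of the range in both strains. It had 37 and 35 reads in the deletion and 72 and 57 in the parental libraries, or 41.1 and 39.1 normalized reads against 62.7 and 52.6. The deletion libraries were the lower ones, and the gap of the means, 40.1 against 57.6 in the authors' deposited table, was not called there (1.44-fold lower, q = 0.137). With edgeR, which called 86.5% of the 9338 genes it tested (44% lower in the deletion strain), it was called, with a log2 change of -0.54 (adjusted p = 0.023) against an SE of 0.21 from counting error alone. DESeq2 did not call it (adjusted p = 0.202). Per kb of span, 17.3% of tested genes lay below catA in the parental strain and 18.3% in the deletion strain.

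Since catA is known from conidia and cpeA from sexual tissue, markers of both were read beside them. For comparison with the counts of both lists, 36.3% of all genes tested were called higher and 35.9% lower. Among 8 markers of conidia and conidiophores, 5 were called lower, 1 higher and 2 not called. The developmental activator abaA had 127 and 125 normalized reads in the deletion against 1153 and 1120 in the parental libraries, the hydrophobin rodA 28.9 and 31.3 against 160 and 136. The marker that rose was yA, the laccase of the green spore pigment, with 429 and 408 against 104 and 93.2. Summed over the 8 markers there were 1498 and 1533 normalized reads in the deletion and 2779 and 2634 in the parental libraries. All 4 markers of sexual development and its nursing Hülle cells were called lower, among them the transcription factor gene nosA with 602 and 567 against 3809 and 3787. Their sum was 7144 and 7255 against 13654 and 13373 normalized reads. No marker of either list was at 0. The deletion libraries were the lower ones in both sums, as they were for catA and cpeA. Each sum mainly follows its most abundant genes and is no measure of a cell type. In the conidial list these are, by the means, abaA (1137) and vosA (910) in the parental strain. In the deletion strain they are vosA (703) and yA (419), the marker that rose, while abaA had 126. The sexual sum follows the regulators nosA, nsdD (2481 against 3819) and steA (4110 against 5826), while the glucanase gene mutA had 24.5 against 70.2. The part of these cell types in the values of the 2 catalase genes was not tested.

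**Figure D2:**
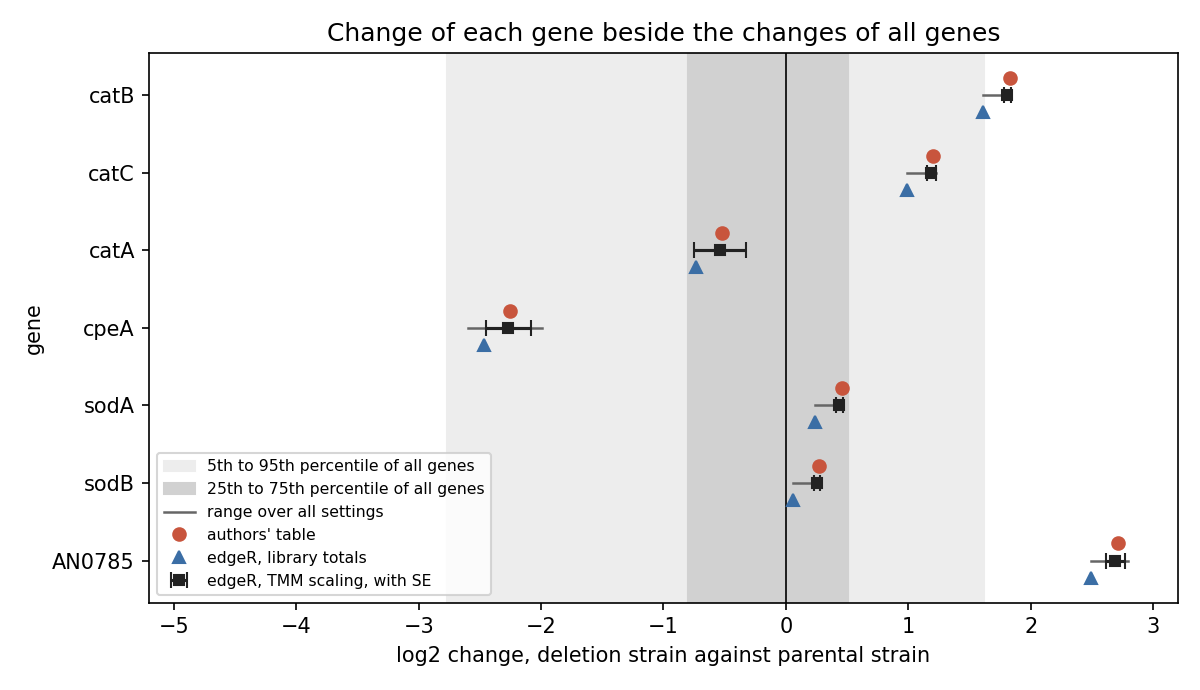
Log2 change of each gene in the deletion against the parental strain, in the authors' table (circles), in edgeR with TMM scaling (squares, bars are the larger of the model SE and the counting SE) and in edgeR scaled by library totals (triangles). Thin lines span every setting tried, and grey bands hold the middle of all tested genes with reads in both strains, from -0.80 to 0.51 for the 25th to 75th percentile and from -2.77 to 1.62 for the 5th to 95th. Both bands come from the authors' table. AN0785 lies above the wider band under every setting, and catB does so under every setting with another scaling than library totals. Library totals give 1.61 for catB but also lower the median of all genes, from -0.02 to -0.21. The band was not redrawn for that scaling, so catB cannot be placed against it there. Under library totals sodB comes near 0.

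Among the 3 superoxide dismutases of the 7 genes, the largest rise was in the least abundant. AN0785, annotated as a putative manganese superoxide dismutase, lies at positions 2476354 to 2477176 on the plus strand. It had 1019 and 1078 reads in the deletion and 219 and 180 in the parental libraries, or 1133 and 1206 normalized reads against 191 and 166. Neither pair of libraries came near the other strain. The authors' deposited table gave means of 1169 and 178, a 6.56-fold rise (q = 1.43e-160), and edgeR a log2 change of 2.69 (SE 0.08, adjusted p = 3.81e-15). Only 2.48% of the genes tested rose more. In level per kb of span AN0785 stood above 36.9% of tested genes in the parental strain and above 77.3% in the deletion strain.

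The more abundant superoxide dismutase genes rose far less. The copper- and zinc-dependent sodA, at positions 4171478 to 4172738 on the minus strand, had 28719 and 28562 reads in the deletion and 26306 and 25668 in the parental libraries, or 31936 and 31943 normalized reads against 22899 and 23680. The authors' deposited table gave a 1.37-fold rise (q = 6.39e-44), and edgeR a log2 change of 0.44 (SE 0.03, adjusted p = 1.36e-10). The deletion libraries were the higher ones before and after scaling.

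For the manganese superoxide dismutase gene sodB the direction of the raw reads and of the scaled reads differed. At positions 2351908 to 2352959 on the plus strand, it had 8122 and 8071 reads in the deletion libraries, fewer than the 8503 and 8189 in the parental libraries. After scaling it had 9032 and 9026 normalized reads against 7402 and 7555. The rise was 1.21-fold in the authors' deposited table (q = 2.37e-12), with an edgeR log2 change of 0.25 (SE 0.03, adjusted p = 2.35e-07). With library totals in place of TMM scaling, which moved the median change of all genes from -0.02 to -0.21, the log2 change of sodB was 0.057 and no longer called (adjusted p = 0.067). That of sodA was 0.24 under library totals and still called (adjusted p = 9.45e-08). With a coefficient of variation of 0.1 assumed between libraries, under which 68.5% of all genes were called, sodB was not called either (adjusted p = 0.109). With one of 0.2 assumed, under which 43.9% of all genes were called, neither sodA (adjusted p = 0.218) nor sodB (adjusted p = 0.502) was called, while AN0785, catB, catC and cpeA were.

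**Figure D3:**
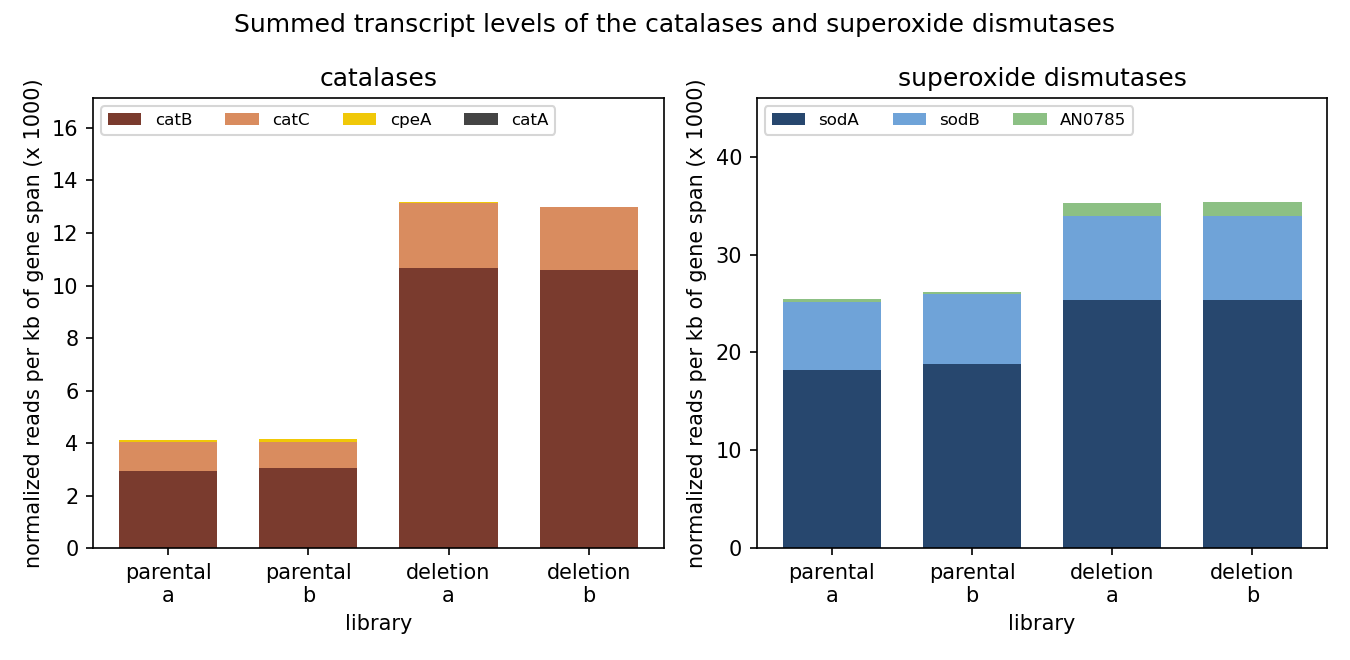
Summed levels of the 4 catalases (left) and the 3 superoxide dismutases (right) in each library, as normalized reads per kb of gene span (axis in units of 1000), stacked by gene. The catalase bars are taller in both deletion libraries mainly through catB, and cpeA and catA are thin or invisible slices at this scale.

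Put on one scale, as normalized reads per kb of gene span (introns included), the order of the genes differed between the strains. In the parental strain sodA came first with 18469, followed by sodB with 7109, catB with 2994, catC with 1054, AN0785 with 217, cpeA with 77.0 and catA with 23.2. Each of these neighbours was apart in both libraries of the strain. In the deletion strain catB, with 10631, stood above sodB, with 8583, and below sodA, with 25328. Next came catC with 2430 and AN0785 with 1421. The genes catA and cpeA, at 16.2 and 16.1, overlapped between libraries and their order cannot be read.

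Summed per kb, the 4 catalase genes reached 13184 and 13005 in the deletion libraries against 4132 and 4166 in the parental libraries, 3.16-fold by the means. The 3 superoxide dismutase genes reached 35288 and 35376 against 25427 and 26162, 1.37-fold by the means. The sum of the 4 catalase genes relative to that of the 3 superoxide dismutase genes was 0.374 and 0.368 in the deletion and 0.162 and 0.159 in the parental libraries. This ratio within a library does not depend on its scaling.

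Within the listed genes of each family, the makeup differed between the strains. The shares leave out 2 other annotated genes, described below. These are the catalase AN8553, with 33.4 per kb in the deletion and 63.0 in the parental strain, and the superoxide dismutase AN1131, with 259 and 442. The share of catB in the catalase sum was 81.0% and 81.4% in the deletion and 71.4% and 72.9% in the parental libraries. The share of catC was 18.8% and 18.4% against 26.3% and 24.6%, although its own level rose. That of cpeA was 0.148% and 0.0981% against 1.72% and 1.99%. Among the superoxide dismutases, the share of sodA stayed between 71.4% and 71.8% in the 4 libraries. AN0785 made up 3.90% and 4.14% in the deletion libraries against 0.911% and 0.771% in the parental libraries, and sodB 24.3% and 24.3% against 27.7% and 27.4%. Per kb, sodB stood 6.24 and 5.86 times above AN0785 in the deletion libraries and 30.4 and 35.6 times above it in the parental libraries.

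Other genes of peroxide and superoxide handling, and genes annotated for a response to oxidative stress or hydrogen peroxide, were taken from words in the annotation. Of 42 such genes 41 were tested, of which 22 rose, 12 fell and 7 were not called, with a median log2 change of 0.40 beside -0.02 over all genes tested. The shares called over all genes tested, 36.3% higher and 35.9% lower, stand beside the counts of this list and its parts. The enzymes among them (peroxidases, peroxiredoxins and the remaining catalase and superoxide dismutase, with the copper chaperone AN6045, whose annotation names that enzyme) had 6 higher, 10 lower and 5 not called of 21, with a median of -0.10. The others, mostly annotated for a response to oxidative stress, had 16 higher, 2 lower and 2 not called of 20, with a median of 0.60. Both remaining genes with a catalase or superoxide dismutase annotation moved against catB and AN0785. AN8553, a putative catalase, had 68.9 and 85.0 normalized reads in the deletion against 143 and 148 in the parental libraries, 1.89-fold lower by the authors' deposited table (q = 3.37e-05). AN1131, a putative cytosolic copper and zinc superoxide dismutase, had 244 and 290 against 457 and 452, 1.70-fold lower by the authors' deposited table (q = 3.19e-10). AN6045, whose orthologs load copper into superoxide dismutase, rose 1.49-fold in the authors' deposited table (q = 2.98e-12), with 2422 and 2647 normalized reads against 1666 and 1735.

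Peroxiredoxins, which reduce hydrogen peroxide with thiols, differed among themselves. AN10223, a putative 1-Cys peroxiredoxin, rose 3.0-fold in the authors' deposited table (q = 4.39e-200), from 23311 to 69916 normalized reads. The peroxiredoxin AN3973 rose 2.29-fold and the thioredoxin-dependent peroxidase AN8692 2.26-fold, the latter from 150893 to 341171 normalized reads by the authors' deposited table. Of the 3 genes with a predicted peroxiredoxin domain, AN1252 was 1.66-fold lower (q = 0.0075), with 56.9 against 94.2 normalized reads by the authors' deposited table. The other two, AN4023 with 725 against 676 (q = 0.305) and AN5232 with 166 against 140 (q = 0.213), were not called there. AN7708, an alditol oxidoreductase by its orthologs, rose 3.10-fold, and AN12121, a protein tag by its orthologs, 1.84-fold in the authors' deposited table. The largest fall was of AN2578, with a predicted peroxidase domain, which was 42.3-fold lower (q listed as 0), with 2556 against 108044 normalized reads by the authors' deposited table. AN3255, a predicted glutathione peroxidase, and AN0629, with that activity in its orthologs, were 1.70-fold and 1.52-fold lower in the authors' deposited table.

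**Figure D4:**
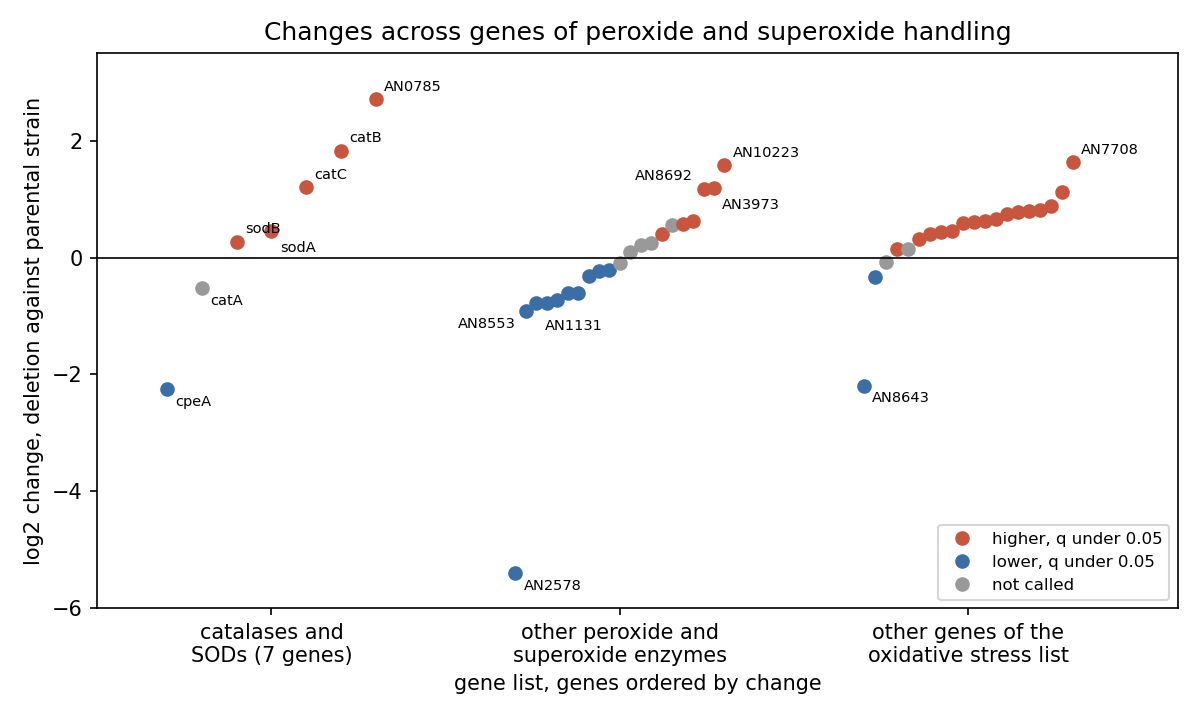
Log2 change in the authors' table for the 7 genes and for the other genes of peroxide and superoxide handling or oxidative stress response, ordered by change within each list and coloured by call at a q-value of 0.05. The 7 genes span -2.26 to 2.71, and AN2578 lies lowest of all at -5.40.

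Regulators tied to oxidative stress differed among themselves. The bZIP factor gene AN7513, annotated as homologous to human AP-1 and named yap1 in RefSeq, was 1.96-fold lower (q = 2.04e-145), with 6478 against 12698 normalized reads by the authors' deposited table. It was added after its annotation had been read. The gene atfA (AN2911), for another bZIP factor of the stress response, was 1.08-fold lower (q = 0.0133), and sakA (AN1017), for the stress-activated kinase that acts above it, rose 1.59-fold by the authors' deposited table (q = 3.20e-68). No other listed regulator had its symbol paired with a gene identifier. The gene atfB (AN6849), in the wider list but not named by the rule, had 371 against 389 normalized reads by the authors' deposited table and was not called (q = 0.639).

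The genes whose normalized reads over the 4 libraries lay nearest to those of a changed catalase or superoxide dismutase gene had varied annotations. The nearest to catC was the peroxiredoxin AN3973 of the list above, at a Euclidean distance of 0.108 on the log2 scale, followed by the putative asparaginase AN8169 (0.158) and the membrane protein AN4615 (0.165). Nearest to catB were AN6004, with an RNA recognition motif (0.243), AN11609 (0.251), annotated by orthologs alone, and the translation initiation factor subunit AN10182 (0.342). Nearest to AN0785 were AN11016, annotated for transmembrane transport (0.257), the putative threonine aldolase AN5426 (0.269) and AN8780, a peptidase by its orthologs (0.375). Nearest to cpeA were AN0368, with retroelement-type domains (0.312), AN5051, with a zinc ion binding domain (0.330), and AN4681 (0.367), annotated by orthologs alone. With 4 libraries this measure reads mainly the level and the difference between the strains.

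The genes on either side of the 7 genes did not move as a block. Of 14 flanking genes, 5 rose, 3 fell and 6 were not called, with a median log2 change of -0.055. Such calls are common, with 36.3% of all genes tested called higher and 35.9% lower. Next to AN0785, on the same strand and 337 bp away, AN0786 rose 5.37-fold in the authors' deposited table (q = 9.72e-46), from 135 to 725 normalized reads. On its other side, 66 bp away on the opposite strand, AN0784 had 114 against 130 normalized reads and was not called (q = 0.418). Next to catB, the trehalase gene AN9340 was 2.02-fold lower by the authors' deposited table (q = 1.44e-85), against the direction of catB. Beside cpeA, the pyrroline-5-carboxylate reductase gene AN7387 rose 2.00-fold in the authors' deposited table (q = 2.59e-10), against the direction of cpeA. On the other side of cpeA, AN7389 had 5.57 against 18.6 normalized reads there and was not called (q = 0.0849). The neighbours of sodA were split by the authors' deposited table. AN0242, on the same strand and 187 bp away, rose 2.37-fold (q = 1.66e-166), and AN0240 was 1.43-fold lower (q = 2.92e-53). Of the sodB neighbours, AN5576 rose 1.33-fold there (q = 1.58e-07) and AN5578 was not called (q = 0.907). Beside catA, AN8638, whose transcript is annotated as enriched in resting conidia, had 39.0 against 46.3 normalized reads and was not called (q = 0.577). On the other side of catA, AN8636 rose 1.80-fold in the authors' deposited table (q = 1.05e-29), with 1347 against 750 normalized reads.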

How the data were processed

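Mycelial RNA was isolated with Trizol and made into libraries with the TruSeq RNA kit v2, per the labels' protocols. Bowtie2, HTSeq and DESeq were used, per the submitters' processing notes, with versions, build and counting settings not given in the sources used here. Signal values were deposited by the authors as the means over the 2 libraries of a strain of reads per gene divided by size factors. The ratio (fold) in the authors' deposited table is parental over deletion strain and was inverted here. Its p-values and q-values are the authors', per the file headers. Another 2 columns hold other samples and were left out. The mean of each strain was deposited in 2 tables, with other size factors. Solving both for whole reads gave 1 solution for each of the 10930 genes (100%) in each strain, within 1e-04 normalized reads, and 100% of simulated reads came back exactly. The recovered libraries carry no replicate number.

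The main comparison is the authors' q-value under 0.05. The recovered reads were tested over all genes with edgeR 4.0.16 (R 4.3.3; quasi-likelihood test, TMM, filterByExpr, Benjamini-Hochberg), DESeq2 1.42.0 and limma 3.58.1 with a prior count of 2. In edgeR the scaling, the filter, the assumed spread and each library were varied. The SE is the edgeR log2 change over the square root of F, and a counting SE is given where it is larger. In data simulated for this comparison (9338 genes, 200 changed), edgeR recovered 91% of 1.5-fold and 99% of 3-fold changes. The simulated spread was a common value estimated from these libraries, and far fewer genes changed than the 86.5% that edgeR called here. These rates therefore do not measure recovery in the real data. With 2 libraries against 2, a permutation test cannot go below p = 0.333. Symbols came from the study's gene set and RefSeq (ASM1142v1), which held all 7 genes and gave the order of neighbours. The rule named all 7 genes, the 5 largest rises and falls of the wider list with a mean of at least 100 normalized reads, the other genes annotated as catalase or superoxide dismutase, listed regulators, and the 3 genes nearest to each gene changed at least 2-fold on log2(normalized reads + 1). The genes, lists and rules were chosen with earlier results of these data known. No sequence is shown.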

Additional observations from a re-analysis of the deposited data

How the results depend on the processing

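Directions held for all 7 genes in each of the 14 other settings tried, with the TMM-scaled edgeR test, DESeq2 and limma among them. Those of a q-value under 0.01 and of at least 2-fold reuse the authors' log2 changes, so their directions could not differ. The calls of catB, catC, cpeA and AN0785 held in each. Log2 changes spanned 1.61 to 1.83 for catB, 0.99 to 1.23 for catC, -2.60 to -1.99 for cpeA and 2.49 to 2.80 for AN0785. The call of sodB was lost under library totals (0.057, adjusted p = 0.067) and with a coefficient of variation of 0.1 (0.25, adjusted p = 0.109) or 0.2 (0.25, adjusted p = 0.502), and that of sodA with 0.2 (0.44, adjusted p = 0.218). Requiring 2-fold in the authors' table left out sodA (0.46) and sodB (0.27) by construction. The gene catA, not called in the authors' table, was called in edgeR (-0.54, adjusted p = 0.023), also with DESeq2 size factors (-0.53), library totals (-0.74), no filter (-0.53) and a coefficient of variation of 0.1 (-0.54), and in limma (-0.51). The cause of these differences was not tested. Leaving out 1 library in turn gave -0.66 to -0.41 for catA, 0.41 to 0.46 for sodA and 0.24 to 0.27 for sodB, and catA was called only without parental library b (adjusted p = 0.026).

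Among the 7 genes, 3 were called higher at 2-fold in the authors' table or with a coefficient of variation of 0.2, and 2 called lower (catA besides cpeA) in edgeR, with DESeq2 size factors, library totals, no filter or a coefficient of variation of 0.1, and in limma. Without 1 library, the count of lower genes was 1 or 2. Over all genes, the 2-fold rule left 958 higher and 1904 lower, and a coefficient of variation of 0.2 left 1601 and 2494. In the peroxide and superoxide list these settings left 5 and 2, and 10 and 5. At 2-fold, 3 conidial and 2 sexual markers were called lower, and with a coefficient of variation of 0.2, 2 sexual markers. Without division by span, 6 of 6 neighbouring pairs kept their order in the deletion strain and 5 of 6 in the parental strain. The parental pair that changed was AN0785 and cpeA, with means of 178 and 189 normalized reads. Parental sodB and catB, with means of 7478 and 7425, kept their order but overlapped between libraries, so their gap per kb came from the spans. Coding lengths were not at hand for the other planned length. No paired analysis was possible because the recovered libraries carry no replicate number. Depth limits catA and cpeA, which had at most 72 and 221 reads in a library.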

Other observations

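Among genes of hydrogen peroxide removal that the rule for named genes did not pick, the 2 putative cytochrome c peroxidases, chosen after their values were seen, went opposite ways by small amounts. In yeast, cytochrome c peroxidase removes hydrogen peroxide in mitochondria. AN10220 had 29151 and 29068 normalized reads in the deletion and 21895 and 22152 in the parental libraries, a 1.32-fold rise in the authors' deposited table (q = 4.06e-34). AN5440 had 1089 and 1115 against 1238 and 1343, 1.17-fold lower by the authors' deposited table (q = 0.0018). AN8080, with thioredoxin peroxidase activity in its orthologs, had 3940 and 4021 normalized reads against 6024 and 6044, 1.52-fold lower by the authors' deposited table (q = 1.63e-43). AN8643, whose orthologs respond to heat and hydrogen peroxide, had 16 and 7 reads in the deletion against 71 and 60 in the parental libraries, 4.57-fold lower by the authors' deposited table (q = 1.91e-07).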
